A study of Mus musculus with 24 samples.

Results

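MHC class II and B cell transcripts were followed through CD4+ T cell preparations of WT and BAF180-/- mice as a measure of RNA from B cells and other antigen-presenting cells. There were 9 genes. Cd74, H2-Aa, H2-Ab1, H2-Eb1 and H2-DMa belong to the class II pathway, and Cd79a, Cd79b, Cd22 and Mzb1 are known from B cells and plasma cells. They were chosen by gene symbol among the 25697 probes of the deposited table. Under their current symbols 7 of the 9 genes were found, while Cd74 was listed as Ii and Mzb1 as 2010001M09Rik. Together the 9 genes had 16 probes, of which 15 were detected on at least 1 array (detection p of at most 0.02) and were tested, out of 14246 such probes of 10418 genes. The remaining probe, ILMN_3079866 of Cd22, was detected on 0 of 24 arrays.

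Total RNA had been hybridized to 24 Illumina MouseRef-8 v2 BeadChip arrays, with 3 arrays, named replicates A, B and C, in each of 8 groups made of 4 cell states and 2 genotypes. Resting naive CD4+CD62L+ cells came from spleen and lymph nodes of mice 4 to 6 weeks old and were purified with a kit to a stated 95% purity. Stimulated naive cells had been on plates coated with anti-CD3 (1 µg/ml) and anti-CD28 (2 µg/ml) for 24 h. Resting Th2 cells had been grown from naive cells with anti-CD3, anti-CD28, IL-4 (10 ng/ml), anti-IFN-gamma (10 µg/ml) and IL-2 (100 U/ml), and stimulated Th2 cells had in addition received PMA (50 ng/ml) and ionomycin (500 ng/ml) for 1.5 h. BAF180, encoded by Pbrm1, is a subunit of the PBAF form of the SWI/SNF chromatin remodeling complex. It was deleted with Cre driven by CD4 regulatory sequences, which the study chose because they act late in the development of thymocytes. The model is thus a deletion in T cells, and the state of the gene in B cells or macrophages of these preparations was not tested. The labels call the strain Balb/c in both genotypes. The methods of the study instead describe a mixed background that included B6, before the cross to CD4-Cre mice.

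MHC class II molecules are heterodimers of an alpha and a beta chain that present peptides to CD4+ T cells. Cd74, the invariant chain, guides them to endosomes and blocks their groove until H2-DM exchanges its remnant for a peptide. Resting mouse T cells make little class II, whereas B cells, dendritic cells and activated macrophages make much of it under the control of the transactivator Ciita. Cd79a and Cd79b form the signalling part of the B cell receptor, Cd22 is an inhibitory receptor of B cells, and Mzb1 is a chaperone of the endoplasmic reticulum in marginal zone B cells and plasma cells.

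H2-Ab1 was measured by 4 probes, and their sequences show what was read. A pair of them overlapped over 24 bases and differed there at a single base, written in capitals, while the other 2 lay at positions 180 and 732 of their transcript. Between the overlapping stretches the substitution from ILMN_1226525 to ILMN_2607675 was C6T, with positions counted from the first base shown.
H2-Ab1 ILMN_1226525 overlap: ctgctCcgaattcctgactgccag
H2-Ab1 ILMN_2607675 overlap: ctgctTcgaattcctgactgccag
H2-Ab1 ILMN_2631423: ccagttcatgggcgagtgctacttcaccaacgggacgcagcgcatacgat
H2-Ab1 ILMN_2913716: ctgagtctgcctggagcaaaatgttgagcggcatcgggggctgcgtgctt
All 4 probes were detected on all arrays of resting naive cells, so that the class II beta chain was read at several places of its transcript. Levels of different probes are not comparable on these arrays. Differences can be set side by side, but those of dim probes are compressed near the floor by the constant of 16 added in processing. The differences of the 4 probes are given below.

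Class II promoters share the SXY module, whose Y box, read as CTGATTGG, binds the factor NF-Y. The 120 bases before the start site are shown for H2-Aa, H2-Eb1 and the upstream start of H2-DMa. CTGATTGG is in capitals (RefSeq, GRCm38.p6, each in the direction of its gene). Whether this motif bears on the levels of these genes was not tested.
H2-Aa, chr17:34287824-34287943, minus strand: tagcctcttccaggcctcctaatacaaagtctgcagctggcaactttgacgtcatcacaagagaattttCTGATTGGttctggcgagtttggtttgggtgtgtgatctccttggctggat
H2-Eb1, chr17:34305747-34305866, plus strand: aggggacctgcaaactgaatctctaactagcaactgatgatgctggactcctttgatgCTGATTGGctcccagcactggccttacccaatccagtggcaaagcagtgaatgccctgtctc
H2-DMa, chr17:34122712-34122831, plus strand: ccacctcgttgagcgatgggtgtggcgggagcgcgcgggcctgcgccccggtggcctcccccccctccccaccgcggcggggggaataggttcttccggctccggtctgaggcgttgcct
The letters began 51 bases before the start of H2-Aa and 62 bases before that of H2-Eb1, and were not found in this window of H2-DMa. On either strand of windows of 300 bases (250 before and 50 after a start), 1346 of 32851 promoters held CTGATTGG, or 4.1%. The promoter table covered 8 class II genes (H2-Aa, H2-Eb1, H2-DMa, H2-DMb1, H2-DMb2, H2-Oa, H2-Ob and H2-Eb2), and 4 of them held it. The shorter core GATTGG, which is part of the longer motif, was in 16.1% of all promoters and in all 8 of these genes, for H2-DMa at a start downstream of the one shown. H2-Ab1 and Cd79b had no entry.

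The preparations were checked first on the targeted gene. On its brightest probe Pbrm1 fell by 1.01 in resting naive, 1.63 in stimulated naive, 1.86 in resting Th2 and 1.42 in stimulated Th2 cells of BAF180-/- mice (log2 differences, standard error 0.23 each). On each array between 8047 and 10689 probes were detected, and replicate arrays of a group correlated at 0.949 to 0.989 across probes. All 8 T cell markers examined (Cd3e, Cd3d, Cd3g, Cd4, Thy1, Lck, Cd5 and Lat) were detected on all 24 arrays. With 3 arrays in a group the number of arrays limits the precision, and the p-values measure the spread between these samples. The study's methods and legends describe the arrays as made from pairs of WT and BAF180-/- mice, while the labels do not say from which mouse an array came.

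Resting naive preparations held all 9 transcripts, each detected on all 6 arrays. On a scale of normalized log2 intensity, on which undetected values of the 9 genes lay between 4.19 and 4.67, Cd74 read 12.55, 12.15 and 12.60 in WT replicates A, B and C, and 12.46, 12.93 and 12.67 in BAF180-/- replicates A, B and C. H2-Eb1, a class II beta chain, read 11.78, 11.83 and 11.99 in WT and 11.57, 12.09 and 11.80 in BAF180-/- cells. The arrays of each gene lay close together and the genotypes overlapped. H2-Ab1, the other beta chain, lay between 12.42 and 13.18 over the 6 arrays. H2-Aa, an alpha chain, lay between 8.91 and 10.15, and H2-DMa, a subunit of the peptide exchanger, between 10.64 and 11.29. Among B cell genes, Cd79a lay between 6.11 and 7.31, Cd22 between 5.68 and 6.93, Cd79b between 7.50 and 9.40 and Mzb1 between 7.25 and 9.48, so that the last 2 spread more widely than the class II genes. In such bulk samples fewer cells of a type and less RNA per cell cannot be told apart.

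**Figure D1:**
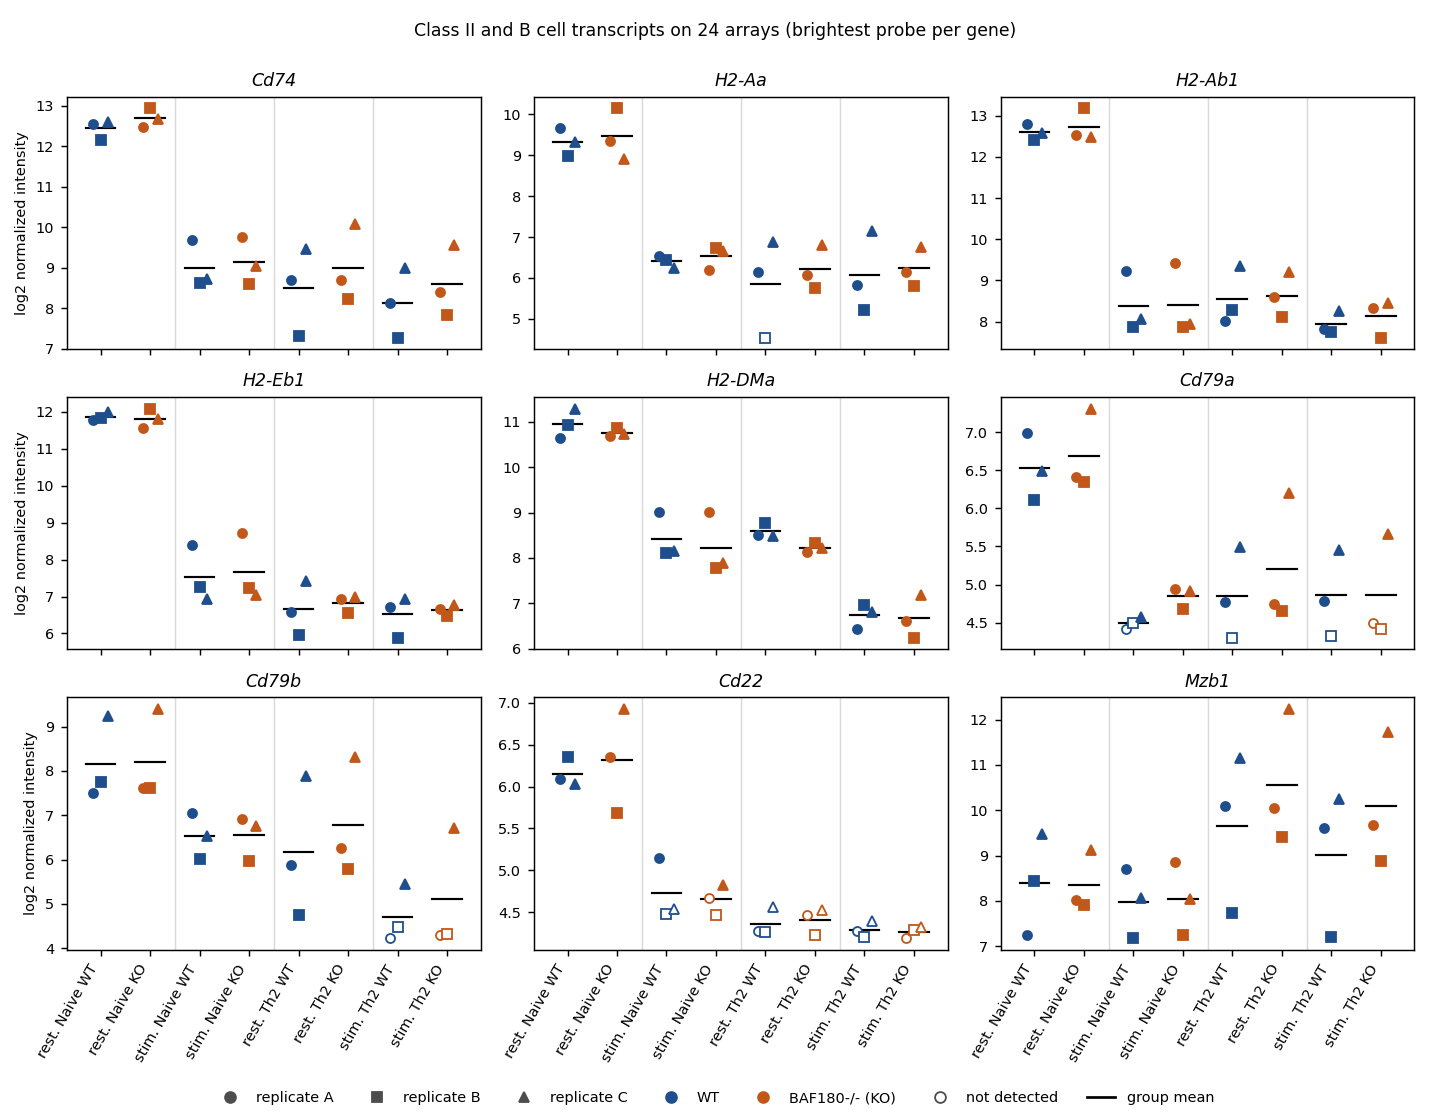
Normalized log2 intensity (y axis, a different range in each panel) of the brightest probe of each gene on 24 arrays in 8 groups (x axis, KO is BAF180-/-). Symbols are replicates A, B and C, open symbols were not detected, and lines are group means of 3 arrays. The class II genes were highest in resting naive cells, Cd22 was not detected in Th2 cells, and Mzb1 reached 12.24 in replicate C of BAF180-/- resting Th2 cells.

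After 24 h of stimulation the class II transcripts were much lower in both genotypes. Cd74 read 9.67, 8.61 and 8.71 in stimulated WT cells and 9.75, 8.59 and 9.04 in stimulated BAF180-/- cells. All of these arrays lay below all resting naive arrays. Cd74 fell by 3.44 in WT and fell by 3.56 in BAF180-/- cells (log2 differences, standard error 0.55, n = 3 against 3, limma adjusted p = 3.1e-05 and 2.2e-05), or 10.8-fold and 11.8-fold. H2-Eb1 fell by 4.35 (SE 0.41, 20.3-fold) in WT cells and by 4.16 (SE 0.41, 17.8-fold) in BAF180-/- cells. H2-Ab1 fell by 4.21 and 4.33, and its other 3 probes by 4.19 to 4.65 in WT and by 4.25 to 4.61 in BAF180-/- cells. H2-Aa fell by 2.92 and 2.94. H2-DMa fell by 2.53 in both genotypes.

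Among the B cell genes Cd79a fell by 2.03 in WT and 1.85 in BAF180-/- cells (SE 0.41, adjusted p = 0.00037 and 0.00091). Under median centring in place of quantile normalization it did not pass (-1.28 and -1.18, adjusted p = 0.0833 and 0.108). It was detected on 1 of 3 WT and 3 of 3 BAF180-/- stimulated arrays. Cd22 fell by 1.43 and 1.67 (SE 0.22) and was detected on 1 of 3 stimulated arrays of each genotype. Its other tested probe, ILMN_1221913, was detected on only 1 of 3 resting naive arrays of each genotype. That probe averaged 4.74 in resting and 4.30 in stimulated naive WT cells, and 4.69 and 4.27 in BAF180-/- cells. Cd79b differed by -1.62 and -1.67, but its standard error of 0.78 left it short of the threshold (adjusted p = 0.0998 and 0.0941). It passed when the replicate letter entered the model as a block (adjusted p = 0.0058 and 0.0050). Such a block gives each letter a single shift shared by all states. The order of the letters differed between naive and Th2 cells, as given below, which limits all block results. Mzb1 differed by -0.40 and -0.31 (SE 0.93), with 95% intervals from -2.33 to 1.53 and from -2.24 to 1.62. In all, 7 of 9 members were lower at an adjusted p below 0.05 in each genotype, where 22.8% of all genes tested were lower in WT and 22% in BAF180-/- cells (25.5% and 24% were higher). Under median centring 6 members were lower in each genotype, against 6.5% and 7.05% of all genes, and 29.5% and 30.9% of genes were higher. The median difference of the members was -2.53 in each genotype, against 0.01 and 0.02 for all probes tested.

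Resting Th2 cells held the same class II genes at low levels. Cd74 read 8.69, 7.32 and 9.46 in WT and 8.69, 8.23 and 10.08 in BAF180-/- cells. H2-Eb1 read 6.57, 5.96 and 7.43 in WT and 6.94, 6.56 and 6.98 in BAF180-/- cells. Replicate B was lowest and C highest for both genes in both genotypes, and the genotypes overlapped. Against resting naive cells H2-Eb1 fell by 5.22 in WT (SE 0.41, 37.2-fold, adjusted p = 4.2e-09) and was 31.9-fold lower in BAF180-/- cells (adjusted p = 8.6e-09). Cd74 differed by -3.94 in WT and -3.69 in BAF180-/- cells, H2-Ab1 by -4.04 and -4.10, H2-Aa by -3.47 and -3.26 and H2-DMa by -2.37 and -2.53, all past the threshold. Under median centring H2-DMa in BAF180-/- cells did not pass (-1.19, adjusted p = 0.0517). The other 3 probes of H2-Ab1 differed by -3.80 to -4.73 in WT and by -4.12 to -4.67 in BAF180-/- cells. Cd79a fell by 1.68 and 1.49, and under median centring it did not pass (-0.875 and -0.562, adjusted p = 0.25 and 0.421). Cd22 was detected on 0 of 12 Th2 arrays, and its level in resting naive cells was at least 2.94-fold higher than in resting Th2 cells in WT and at least 3.35-fold higher in BAF180-/- cells, set against the lowest detected signal of each Th2 array (adjusted p = 2.8e-06 and 1.2e-06).

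Cd79b again was lower without passing the test, by -1.99 in WT and -1.42 in BAF180-/- cells (SE 0.78, adjusted p = 0.0539 and 0.17), and it passed with the replicate letter as a block (adjusted p = 0.0018 and 0.018). The arrays of replicate C weighed on this value, since without WT replicate C of resting Th2 cells the difference in WT was -2.84 (adjusted p = 0.00963). Without replicate C of all 4 Th2 groups it passed in both genotypes, at -2.84 and -2.18 (adjusted p = 0.00097 and 0.0072). Its other probe, ILMN_2661523, differed by -1.22 and -0.79 and did not pass either. Lower at an adjusted p below 0.05 were 7 of 9 members in each genotype, against 18.7% of all genes tested in WT and 18.6% in BAF180-/- cells (20.9% and 21.3% were higher). Under median centring 6 members were lower in WT and 5 in BAF180-/- cells, against 4.94% and 5.73% of all genes, and 25.9% and 45.6% of genes were higher. The member medians were -2.37 and -2.53, against 0.03 for all probes in each genotype.

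Mzb1 did not follow the other members. It read 10.09, 7.73 and 11.16 in WT resting Th2 cells and 10.06, 9.40 and 12.24 in BAF180-/- resting Th2 cells, against 7.25, 8.43 and 9.48 and 8.03, 7.91 and 9.13 in resting naive cells of the same genotypes. The Th2 and naive arrays overlapped in WT, and in BAF180-/- cells all Th2 arrays were above all naive arrays. The differences were 1.27 in WT (SE 0.93, adjusted p = 0.311) and 2.21 in BAF180-/- cells (adjusted p = 0.0698), and the second passed with the replicate letter as a block (adjusted p = 0.0061) and without BAF180-/- replicate B of resting Th2 cells (2.80, adjusted p = 0.0439). Across the 24 arrays the level of Mzb1 had a Pearson correlation of 0.011 with the mean of the 9 members, whereas each of the other members lay between 0.874 and 0.991, which is a description, since each gene is part of the mean.

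**Figure D2:**
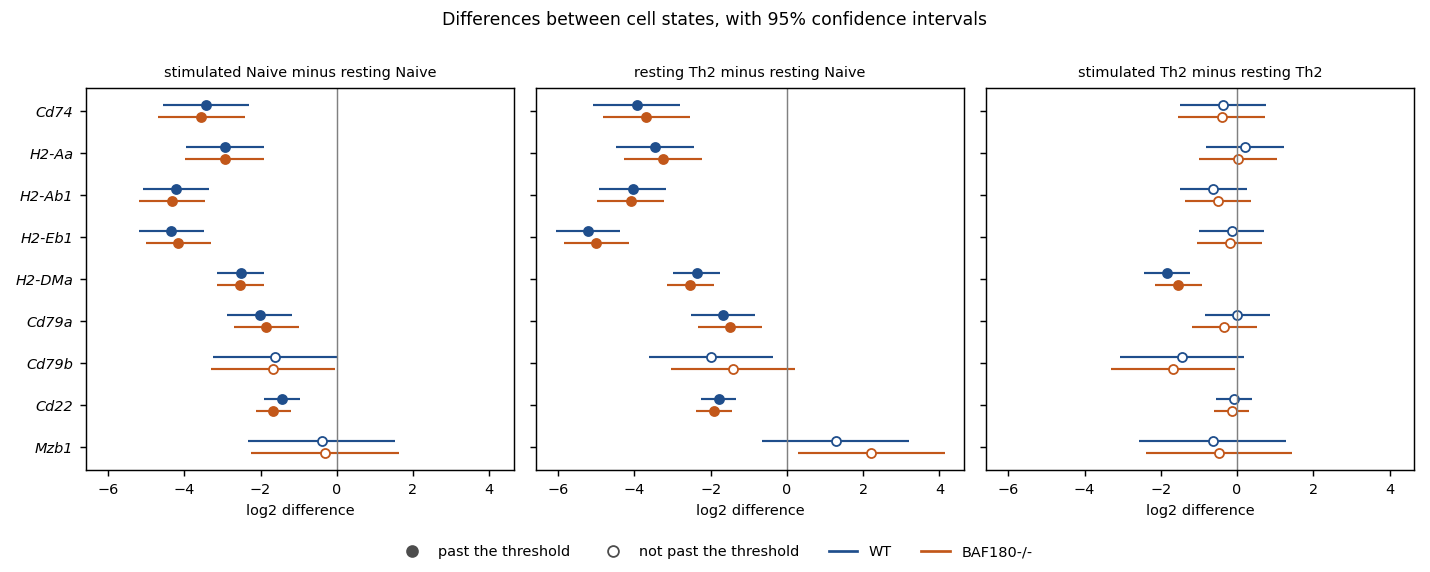
Log2 differences between cell states (x axis) of the brightest probe of each gene (y axis), with 95% confidence intervals from the model, in WT and BAF180-/- cells. Filled points passed an adjusted p below 0.05. In both comparisons with resting naive cells all members but Cd79b and Mzb1 passed as lower, and between the Th2 states H2-DMa alone passed.

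PMA and ionomycin were given to Th2 cells for 1.5 h, and 1 member changed. H2-DMa read 8.51, 8.76 and 8.48 in WT and 8.13, 8.33 and 8.22 in BAF180-/- resting Th2 cells, and 6.44, 6.97 and 6.81 and 6.62, 6.24 and 7.19 after treatment. The treated and untreated arrays did not overlap. It fell by 1.84 in WT (SE 0.29, 3.59-fold, adjusted p = 5.8e-05) and by 1.54 in BAF180-/- cells (2.91-fold, adjusted p = 0.00045). The other class II genes differed by -0.62 to 0.21, with H2-Ab1 at -0.62 and -0.50 (adjusted p = 0.33 and 0.457). The call thus held for 1 of 9 members, where 16.4% of all genes were lower in WT and 16.1% in BAF180-/- cells (13.9% and 13% were higher). Under median centring H2-DMa alone was lower too, with 5.86% of genes lower and 8.34% higher in WT and 18.2% and 3.34% in BAF180-/- cells.

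Cd79b read 5.88, 4.74 and 7.88 in WT and 6.26, 5.79 and 8.32 in BAF180-/- resting Th2 cells. After PMA and ionomycin it read 4.23, 4.47 and 5.45 and 4.29, 4.33 and 6.72, and replicate C was the only one detected in each genotype. The differences of -1.45 and -1.68 (SE 0.78) had adjusted p = 0.195 and 0.128, and both passed with the replicate letter as a block (0.0189 and 0.0080). Without BAF180-/- replicate C of stimulated Th2 cells the difference in that genotype was -2.48 (adjusted p = 0.0273). Leaving replicate C out of all 4 Th2 groups gave -1.72 there (adjusted p = 0.0497), so that 2 of 9 members were lower there, where 14.6% of all genes were. Cd79a and Cd22 differed by -0.34 to 0.01.

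Between the genotypes no member passed, in any state, the 4 limits that the study's methods set (difference over the SD of all differences, or Z-ratio, beyond 1.5, FDR below 0.3, p below 0.05 and signal above 0). Here they were applied to quantile normalized log2 values and the p and FDR of limma, whereas the study used Z-scores and a p for their replicability. With limma 0 of 9 members had an unadjusted p below 0.05. The same criteria were met by 0.921% of all genes in resting naive, 0.144% in stimulated naive, 0.106% in resting Th2 and 0.106% in stimulated Th2 cells. The count was 0 in each state also with the replicate letter as a block and at a limma adjusted p below 0.05. Members stood higher in BAF180-/- cells in 6, 7, 8 and 7 of 9 cases in the same order, with median log2 differences of 0.14, 0.06, 0.35 and 0.16 against 0.00 for all probes. The largest difference was that of Mzb1 in stimulated Th2 cells, 1.08 with a 95% interval from -0.85 to 3.00. In resting Th2 cells it was 0.91 (interval -1.02 to 2.84), and without WT replicate B, the array with the lowest value, it was -0.05.

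For class II genes the intervals were narrower. In resting naive cells the difference was 0.25 for Cd74 (interval -0.89 to 1.39), 0.14 for H2-Ab1 (-0.74 to 1.01) and -0.05 for H2-Eb1 (-0.90 to 0.80). None of the 9 members changed between states by different amounts in the 2 genotypes at an adjusted p below 0.05. Across all genes the interaction test called 0.0096% for the stimulation of naive cells, 0.0096% for Th2 against naive cells and 0% for the stimulation of Th2 cells. At an unadjusted p below 0.05 the interaction held for 0 of 9 members in each case.

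**Figure D3:**
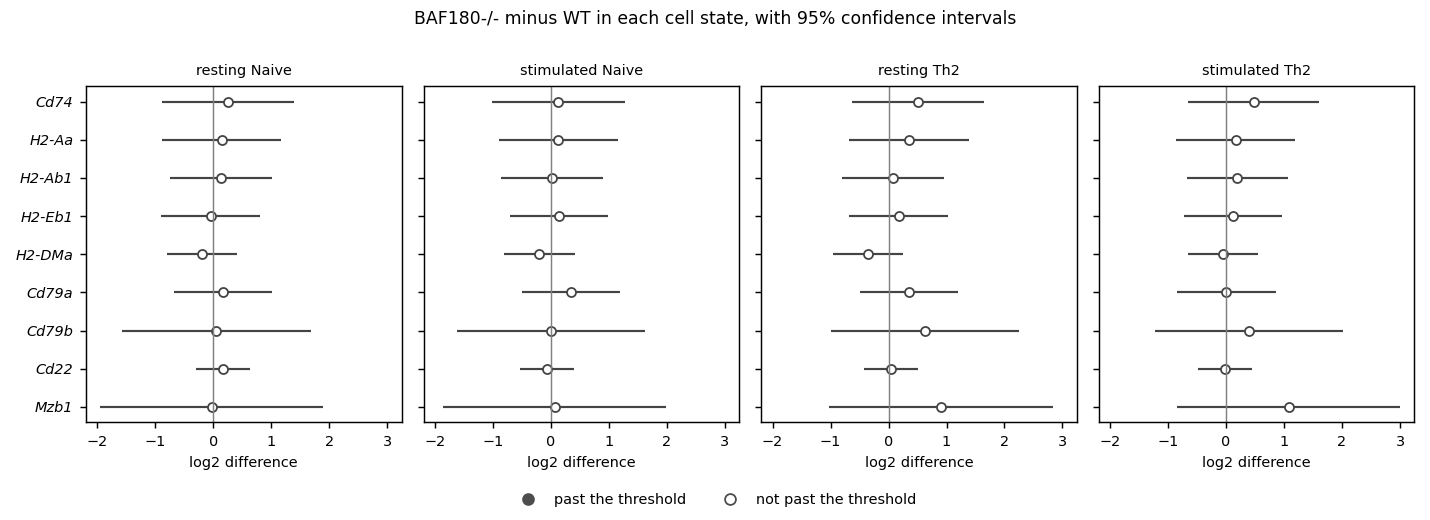
BAF180-/- minus WT log2 difference (x axis) of the brightest probe of each gene (y axis) in the 4 cell states, with 95% confidence intervals from the model (3 arrays per group). All points are open, since none met the 4 criteria, and the intervals of Mzb1 and Cd79b are the widest.

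The arrays of a group did not hold these transcripts equally. The pooled SD within groups was 1.27 for Mzb1, 1.07 for Cd79b, 0.74 for Cd74, 0.67 for H2-Aa, 0.57 for H2-Ab1, 0.55 for H2-Eb1 and Cd79a, 0.39 for H2-DMa and 0.29 for Cd22, against a median of 0.24 over all probes tested. Mzb1 varied more than 99.9% and Cd22 more than 67.3% of the probes tested. The values varied with the replicate letter. In the 4 Th2 groups, replicate C was highest in 33 and replicate B lowest in 29 of 36 combinations of gene and group, although Cd22 was not detected in these groups. Over the 26 combinations detected on all 3 arrays, C was highest in 23, against 36.3% over all probes tested by the same count. H2-DMa was the exception, with C highest in 1 of 4 Th2 groups.

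The letters behaved differently in naive cells. In the 2 stimulated naive groups A was highest in 15 and B lowest in 13 of 18 combinations, and in resting naive cells C was highest in 9 of 18. Cd79b and Mzb1 had their highest array under the same letter in both genotypes in all 4 states. The letter took up 69.9% of the variance within groups for Cd79b, 62.7% for Mzb1, 61.2% for Cd79a, 48.9% for Cd74 and between 3.38% and 23.1% for the other 5 members. Some share arises even with no effect of the letter, and the share over all probes tested was not computed. The study describes its arrays as made from pairs of mice, but whether a letter marks such a pair is not stated in the sources used here, and the part of preparation, mouse or array in this pattern was not tested.

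**Figure D4:**
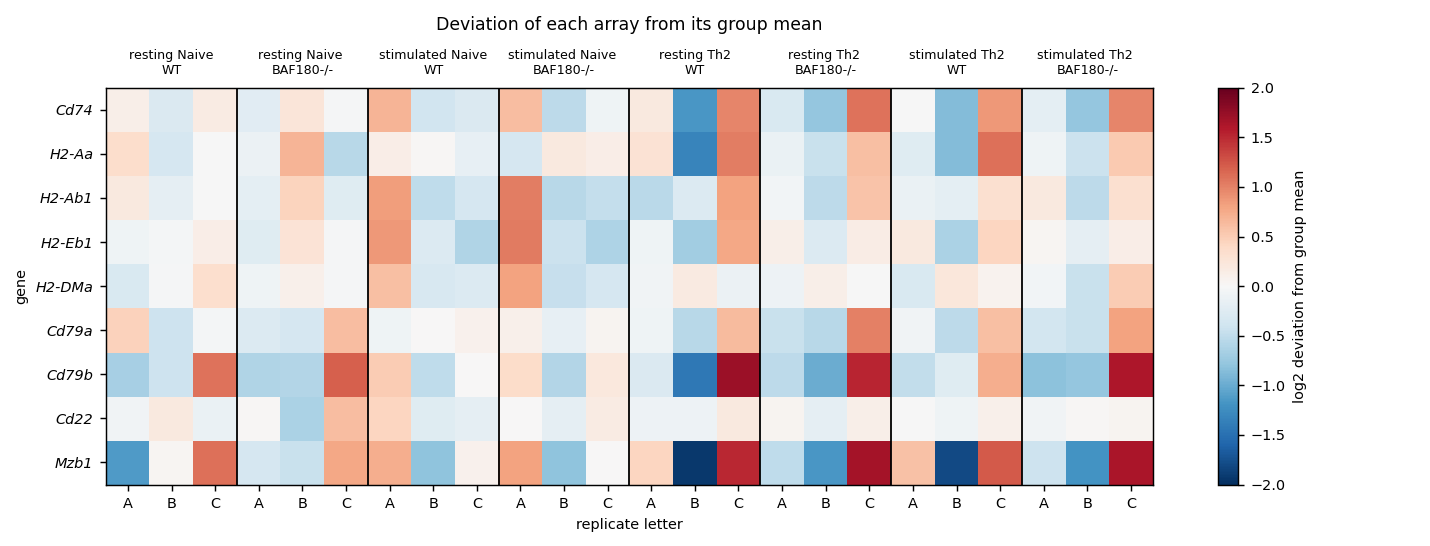
Log2 deviation of each array (columns, by replicate letter within 8 groups) from its group mean for the 9 genes (rows), in color from -2 to 2. Replicate C is high and B low for most genes in all 4 Th2 groups, and A is high for Cd74, H2-Ab1, H2-Eb1 and H2-DMa in both stimulated naive groups.

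A list of other B cell genes was read for the replicate letter in Th2 cells. The list held Ms4a1, Blnk, Pax5, Ebf1, Cr2, Fcer2a, Blk, Vpreb3, Bank1, Ly86, Pou2af1, Cd72, Spib, Fcrla, Ighm, Fcmr and Btk. Of these 17 genes 14 were on the array and 11 detected at least once. C was highest in 27 of the 30 combinations of gene and Th2 group with at least 1 detected array, a filter that a gene can pass through its highest array alone. Where all 3 arrays of a group were detected, C was highest in 8 of 11 combinations, against 36.3% over all probes tested. Btk, the kinase that relays the B cell receptor, read 5.62, 5.05 and 6.55 in WT and 5.10, 5.56 and 7.19 in BAF180-/- resting Th2 cells. It was detected on 3 of 3 arrays of both groups. Blk, a kinase of B cells, read 4.46, 4.17 and 6.19 in WT and 4.41, 4.41 and 6.61 in BAF180-/- resting Th2 cells. Blk was detected there on only 1 of 3 arrays of each genotype, so that these groups were outside the count of 11. By the same count, with all 3 arrays detected, T cell markers had C highest in 4 of 32 combinations. The CD8 T and NK cell list had it highest in 5 of 5. Class II pathway genes other than the members had C highest in 13 of 33, or 39.4%, near the share of all probes. The plasma cell list had it in 3 of 8, the dendritic cell list in 3 of 4 and the monocyte and macrophage list in 0 of 4. The macrophage marker Adgre1 ran the other way, at 7.23, 6.61 and 4.35 in WT and 5.84, 6.42 and 4.65 in BAF180-/- resting Th2 cells.

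The members fell from resting naive to cultured cells, and the B cell list was read beside them. It passed the test as lower for 5 of 11 genes in WT and 6 of 11 in BAF180-/- stimulated naive cells. Of all genes tested, 22.8% and 22% were lower there. In resting Th2 cells 5 and 8 of 11 were lower, against 18.7% and 18.6% of all genes. Fcer2a passed as higher in WT stimulated naive cells on a probe other than its brightest (0.39, adjusted p = 0.0232), and no other gene of the list was higher in these comparisons. Fcrla, a B cell Fc receptor-like protein, had means of 8.47 and 8.59 in WT and BAF180-/- resting naive cells and was detected on 0 of 6 stimulated naive arrays, a level at least 14.1-fold and 15.5-fold lower. Among defining B cell genes, Pax5, Ebf1 and Cr2 were detected on 0 of 24 arrays and Ms4a1 on 1. Spib, a transcription factor of B cells and plasmacytoid dendritic cells, met the 4 criteria between the genotypes in resting naive cells (4.92 in BAF180-/- against 4.39 in WT, detected on 2 and 1 of 3 arrays). Summed intensities only set arrays side by side, since levels of different probes are not comparable. An undetected probe still adds its floor, which includes the constant of 16 added in processing. The summed intensity of the 11 genes was 1670 to 3890 on resting naive and 578 to 1070 on stimulated naive arrays. On resting and stimulated Th2 arrays it was 644 to 2610. In Th2 cells Pou2af1, which rose by 1.88 after PMA and ionomycin in WT, and Fcmr carried the sum, and without both, a choice made after their values were seen, it was 755 to 1400 on resting naive, 278 to 414 on stimulated naive and 174 to 526 on Th2 arrays.

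Markers of monocytes and macrophages were lower in all cultured cells. All 9 genes detected of the 10 listed (Lyz2, Cd14, Csf1r, C1qa, C1qb, Adgre1, Fcgr3, Clec7a and Tyrobp; Itgam was detected on 0 arrays) were lower in stimulated naive and in resting Th2 cells than in resting naive cells of either genotype, with median differences of -3.04 in WT and -3.27 in BAF180-/- stimulated naive cells and of -2.88 and -3.16 in resting Th2 cells. Of all genes tested, 18.6% to 22.8% were lower in these comparisons. C1qb, a subunit of complement C1q made by macrophages, averaged 10.33 in WT and 10.26 in BAF180-/- resting naive cells. It was detected on 1 of 18 arrays of the other states. Lyz2, lysozyme of myeloid cells, averaged 9.76 and 9.58 and was detected on 0 of 18 others, at least 34.5-fold and 30.9-fold lower in stimulated naive cells. The summed intensity of the list was 2210 to 6160 on resting naive, 181 to 196 on stimulated naive and 186 to 308 on Th2 arrays. In the cultured groups these sums hold many floor values, since 6 or 7 of the 9 genes were undetected on all 3 arrays of each group. No gene of the list met the criteria between the genotypes.

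Of 8 dendritic cell genes Itgax, Flt3, Xcr1 and Clec9a were detected on 0 of 24 arrays. Siglech, a receptor of plasmacytoid dendritic cells, averaged 7.50 in WT and 7.23 in BAF180-/- resting naive cells and differed by -2.94 and -2.68 in stimulated naive cells. The summed intensity of the 4 dendritic cell genes detected at least once was 221 to 301 on resting naive and 160 to 340 on stimulated naive arrays. Batf3, a factor of dendritic cells that activated T cells also express, averaged 5.20 in WT and 5.67 in BAF180-/- resting naive cells and 7.06 and 7.16 in stimulated ones. The part of B cells, macrophages and dendritic cells in the class II levels was not tested.

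Most further genes of the class II pathway were lower in cultured cells. Of 16 further genes 14 were detected at least once, and of these 11 were lower in stimulated than in resting naive cells in each genotype, and 10 in WT and 11 in BAF180-/- resting Th2 cells, with 0 higher, against the shares of 18.6% to 22.8% of all genes given above. The median differences were -1.19 and -1.38, and -1.37 and -1.46. Ciita averaged 7.34 and 7.51 in resting naive cells and was detected on 2 of 18 arrays of other states. It fell by 2.56 in WT stimulated naive cells (SE 0.31, adjusted p = 1.0e-06) and was at least 7.33-fold lower in BAF180-/- ones. H2-DMb1, the beta chain partner of H2-DMa, differed by -2.70 and -2.72 in stimulated naive and by -2.98 and -2.65 in resting Th2 cells.

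H2-Oa and H2-Ob, which form an inhibitor of H2-DM in B cells, averaged 7.88 and 7.30 in WT resting naive cells. H2-Ob fell by at least 6.26-fold in WT stimulated naive cells, and H2-Oa fell by 3.18 in WT stimulated naive but by 1.42 in WT resting Th2 cells. In BAF180-/- cells H2-Oa averaged 7.85 in resting naive, 4.35 in stimulated naive and 5.71 in resting Th2 cells. H2-Ob averaged 7.18 in resting and 4.59 in stimulated naive BAF180-/- cells. Cd86, a costimulatory ligand, differed by -0.96 and -0.83 in stimulated naive and by -3.40 and -3.38 in resting Th2 cells. The RFX subunit gene Rfxap fell by 0.45 in WT stimulated naive cells (adjusted p = 0.0382) and differed by -0.31 to 0.02, without passing, in the other 3 of these comparisons. Ifi30, a thiol reductase of antigen processing, differed by -0.65 to 0.05 and did not pass in any of the 4. After PMA and ionomycin 2 of the 14 genes fell in WT and 3 in BAF180-/- cells. These counts are near the share of all genes lower there, 16.4% in WT and 16.1% in BAF180-/- cells. Lgmn, a protease of endosomes, fell by 1.92 and 1.70, beside the fall of H2-DMa.

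H2-Ea, the alpha chain that pairs with H2-Eb1, was detected on 0 of 24 arrays, with means of 4.37 in WT and 4.54 in BAF180-/- resting naive cells, on the same arrays on which H2-Eb1 was at 11.57 to 12.09. As background, mice with the H2-b haplotype such as C57BL/6 carry a deletion in the promoter of H2-Ea, whereas Balb/c mice express the gene. The array has 1 probe for H2-Ea, and whether it can read the transcript was not tested. Rfx5 was detected on 0 arrays as well.

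**Figure D5:**
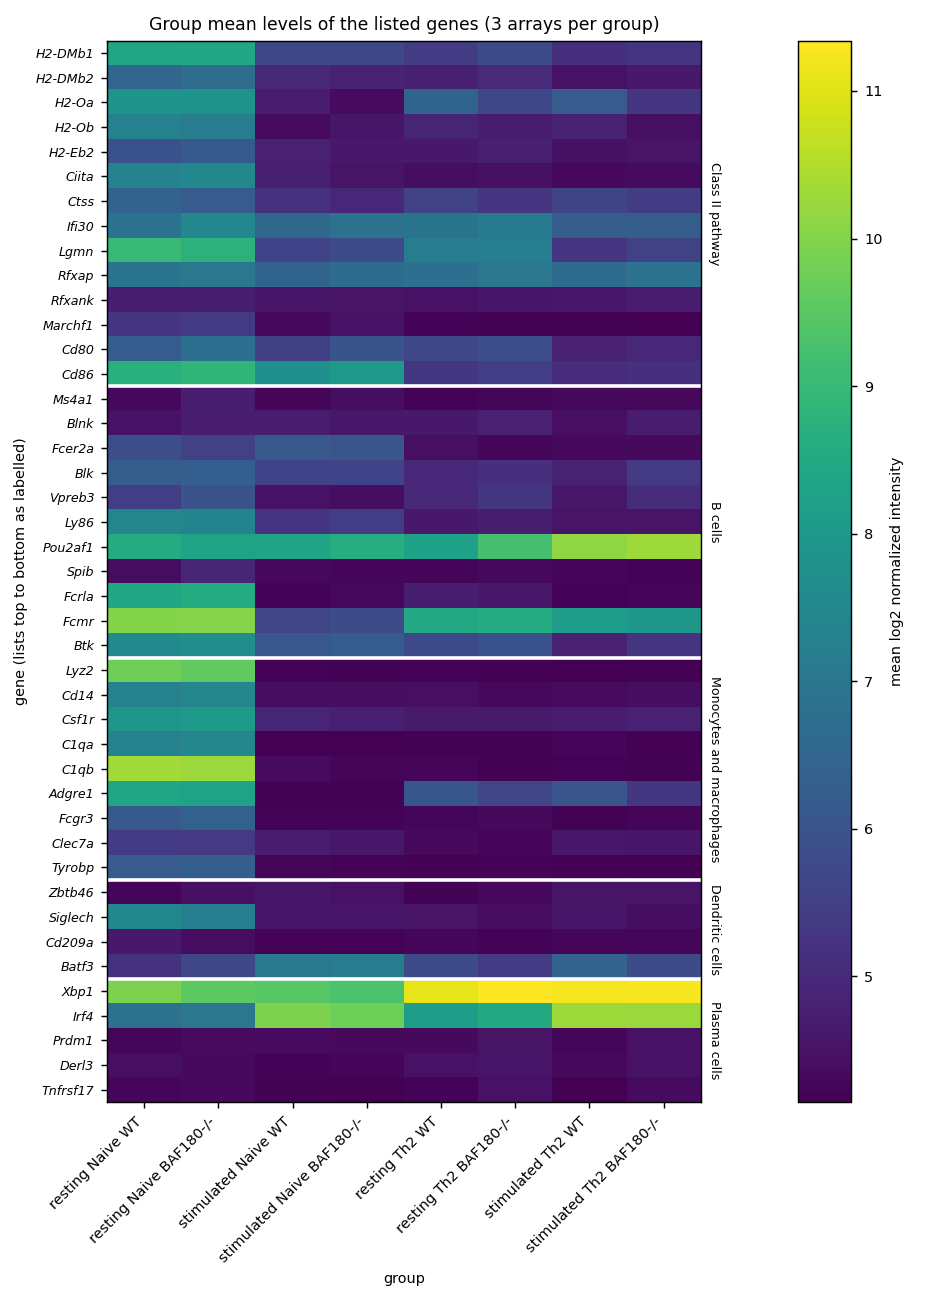
Mean normalized log2 intensity (color, 3 arrays per group) of the listed genes detected on at least 1 array (rows, by list, without the T cell and CD8 T and NK cell lists) in the 8 groups (columns). Lyz2, C1qb, Fcrla and Ciita are bright in resting naive cells of both genotypes and dark in the other groups, while Xbp1 is brightest in Th2 cells.

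The genes most like the members were taken by the correlation of each other probe with the mean of the 9 centred members over 24 arrays, without a test, since the arrays share states. Ctsh, an endosomal protease (Pearson r = 0.985), Unc93b1, the escort of endosomal Toll-like receptors (0.965), Cfp, which encodes properdin (0.959), Rassf4 (0.958 and 0.957 on 2 probes), Dok3 (0.956), H2-DMb2 (0.956), Itgae (0.955), Rgs3 (0.952) and Tlr7 (0.951) came first. Taking the deviations from the 8 group means instead, the order was Lat2 (0.947), Mef2c (0.937), Ctsh (0.912), Blk (0.902), Napsa (0.897 and 0.892 on 2 probes), Plcg2 (0.894), Btk (0.894), Ifitm1 (0.889) and Cnot3 (0.887). Several of these are adaptors and kinases of B cell receptor signalling. In deviations Mzb1 was close to the mean of the members (r = 0.938), as were Cd74 (0.972) and Cd79b (0.901). H2-DMa (0.438) and Cd22 (0.429) were least so. This order is a description, since each gene is part of the mean and widely spread genes weigh most in it. The SD within groups was 1.27 for Mzb1, 1.07 for Cd79b and 0.74 for Cd74, against 0.39 for H2-DMa and 0.29 for Cd22.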

How the data were processed

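The authors deposited, for 25697 probes on 24 arrays, the average bead intensity from GenomeStudio (version 1.6.0 per the submitters' notes), not normalized and with no background subtracted (lowest value per array 25.8 to 30.3), and a detection p-value. Here background was removed with the detection p-values as a guide, 16 was added, and the values were quantile normalized on the log2 scale (neqc, limma 3.58.1, R 4.3.3). Probes detected on at least 1 array entered 1 limma fit of all 24 arrays with a mean for each of 8 groups, and Benjamini-Hochberg adjustment ran over 14246 probes. A gene passed if any of its probes did, and its brightest probe is shown. Genotypes were compared by the 4 limits of the methods, with limma's p and FDR in place of the study's Z-score test, states and interactions at an adjusted p below 0.05. Symbols were updated by Entrez ID for 16938 probes, by accession for 7420, by symbol for 465 and by synonym for 553, and for 321 the old one stayed. Named genes are the members, the listed markers and the 10 probes most correlated with the members. Members and lists were chosen with earlier results of these data known. A marker of the B cell list is not reported here, and the list's counts leave it out. The model was tested on simulated data.

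The main fit did not use the replicate letters, which entered only as a block in an alternative model. Deviations of WT and BAF180-/- arrays of one letter correlated at 0.301 (A), 0.136 (B) and 0.516 (C) pooled over the states. Within single states 2 of 12 correlations were at or below 0.1. Alternatives were other normalizations, filters, models and call rules, and leaving out arrays.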

Additional observations from a re-analysis of the deposited data

How the results depend on the processing

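Between the genotypes, and for the interactions, 0 members were called under every alternative run. In each genotype 7 members were lower in stimulated naive and in resting Th2 cells. Over the alternatives this count was 6 to 8, and 5 to 8 in BAF180-/- resting Th2 cells. With 1 array left out it was 7 to 8. The share of all genes lower in these comparisons moved with the setting too. It ran from 4.94% under median centring (resting Th2, WT) to 25.6% with probes detected on at least 3 arrays (stimulated naive, WT). Against resting naive cells of the same genotype, Mzb1 passed as higher in BAF180-/- resting Th2 cells under some alternatives. These were median centring (45.6% of all genes higher), the replicate block (22.9%), the intensity trend (21.4%) and the 4 limits (5.72%). It also passed there without replicate B of BAF180-/- resting Th2 cells (18.5%). After PMA and ionomycin, 2 members were lower in place of 1 with the replicate block (17.7% of all genes lower in WT, 17.4% in BAF180-/- cells). The count was also 2 in WT with only the arrays of the compared groups (15.8%), and in BAF180-/- cells under the 4 limits (6.43%) and without replicate C of all 4 Th2 groups (14.6%). With 1 array left out it was 1 to 2, and 2 without stimulated Th2 BAF180-/- replicate C (14.8%).

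Median centring in place of quantile normalization moved the median of all probes by up to 0.515. Under it the member medians were -1.37 in WT and -1.41 in BAF180-/- stimulated naive cells, -1.38 and -1.30 in resting Th2 cells, and -0.656 for the interaction of the Th2 stimulation. Cd79a then lost its call in all 4 comparisons with resting naive cells, and H2-DMa in BAF180-/- resting Th2 cells (-1.19, adjusted p = 0.0517). Mzb1 turned positive in stimulated naive cells (0.611 and 0.715). When 1 array was left out, Mzb1 ranged from -0.97 to 0.146 in WT and from -0.713 to 0.0938 in BAF180-/- stimulated naive cells, and from -0.0533 to 1.66 between the genotypes in resting Th2 cells. The cause was not tested. The arrays left out together were chosen after seeing the data.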

Other observations

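Genes of plasma cells and of CD8 T and NK cells were listed beside the members. Jchain and Sdc1, which mark plasma cells, were detected on 0 of 24 arrays, and Prdm1 and Tnfrsf17 on 1. Xbp1, a factor of the unfolded protein response, rose by 1.14 in WT and 1.81 in BAF180-/- resting Th2 over resting naive cells (limma adjusted p = 1.8e-05 and 4.4e-08), and Irf4 rose by 3.12 and 2.74 in stimulated naive cells. Cd8a was detected on 0 arrays and Cd8b1 on 24, and in Th2 cells Cd8b1 was highest in replicate C in all 4 groups, at 8.41 in WT and 8.03 in BAF180-/- resting Th2 cells.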
